A study of Triticum turgidum subsp. durum with 96 samples.

Results

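Of the 159 putative miRNA hairpins without a known mature match (Ttu pre-miR) deposited for durum wheat, 53 were placed by the study on D genome chromosome arms of bread wheat, and these 53 are described here. The members were chosen only by the letter of the arm, and the 47 hairpins on A genome and 59 on B genome arms serve as the comparison. A miRNA is cut from one arm of a folded precursor transcript, the hairpin, and guides the silencing of transcripts with a matching site. Durum wheat carries an A and a B genome, bread wheat a D genome as well, and the 3 genomes hold related copies of most genes on chromosomes of the same number. The hairpins were identified on bread wheat chromosome survey contigs because the durum sequence was incomplete, so a durum read was assigned to a D genome contig by sequence match alone.

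Small RNA libraries were made from the developing head and the flag leaf of 48 plants, 96 libraries in all. The plants were of the water deficit stress tolerant genotypes Tamaroi and Yawa and the sensitive genotypes EGA Bellaroi and Tjilkuri, and each tolerant genotype was compared with the sensitive one of related breeding background. The water deficit stress group (WG) had 15 d at 6% soil water content from booting, and the control group (CG) was kept at 12%. Each of the 16 groups of genotype, treatment and tissue had 6 plants, 3 in each of 2 growing seasons, and a plant is named below by its season and letter (1a to 2c). Values are log2 CPM (counts scaled to the library total, on the log2 scale) as deposited. The lowest value of each library is that of a hairpin with 0 reads, and read counts were recovered from the steps above it. That lowest value is higher in a shallow library than in a deep one.

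The head libraries held 0.609 to 36.1 M small RNA reads (M, mega, median 4.10) and the flag leaf libraries 2.07 to 19.5 M (median 6.40), and 4 head libraries lay under 1.5 M (EGA Bellaroi WG 1a and 2b, Tjilkuri CG 2a and Tjilkuri WG 2c). Between 16 and 46 of the D genome hairpins had a read in a head library (median 37) and between 40 and 50 in a flag leaf library (median 44). The plants Tamaroi CG 1c, Tamaroi WG 2a, Tamaroi WG 2c and EGA Bellaroi CG 1b stood apart in both tissues through a single D genome hairpin described below, and results that rest on them are given with and without them.

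The first question was how far the D genome hairpins repeated the signal of an A or B genome hairpin. Over the 96 libraries, 19 of the 53 (35.8%) had a Pearson correlation of at least 0.9 with some A or B genome hairpin. Of the A genome hairpins 12 of 47 (25.5%) reached 0.9 with a B genome hairpin, and 12 of 59 (20.3%) the other way. The D genome list had more candidate partners, and against A genome hairpins alone the number was 15 (28.3%), against B genome hairpins alone 14 (26.4%). The points of each correlation share library depth and the level of 0 reads, so these are descriptions, with no test. The median of the highest r was 0.73, and the lowest belonged to Ttu pre-miR154 on 7DL (0.44).

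The most abundant member, Ttu pre-miR059 on 2DL (contig 9907038, positions 2800 to 2904), was the plainest case of a repeated signal. It had 129926 reads, against 129978 for Ttu pre-miR045 on 2BL. The values of the pair never differed by more than 0.025 on the log2 scale and were the same to the last digit in 42 libraries (r = 1.00). The pair was not alone, since Ttu pre-miR033 and Ttu pre-miR036, both on 2AL, came close to it. Their head minus flag leaf differences were −0.7688 and −0.7689, against −0.7674 for Ttu pre-miR059 and −0.7687 for Ttu pre-miR045. On the other hand the closest partner was often on another chromosome. Of the 53 highest correlations 12 (22.6%) were with a hairpin of the same chromosome number, close to the 21.3% of A genome hairpins whose closest B genome hairpin shared the number. The D genome list had more candidate partners. Against A genome hairpins alone its share was 26.4%, and against B genome hairpins alone 18.9%. Ties were counted by the first partner, and near ties only by the highest r. Ttu pre-miR151 on 7DL, tied between 3, was thus counted through 2AS although Ttu pre-miR148 on 7BS was equally close.

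Several further members had almost the read total of their partner. Ttu pre-miR083 on 3DL had 474 reads and Ttu pre-miR076 on 3B 476, with the same value in 90 libraries. Ttu pre-miR102 on 4DL had 2406 reads and Ttu pre-miR091 on 4AS 2417, with the same value in 86. Ttu pre-miR028 on 1DS had 1131 reads and Ttu pre-miR127 on 6BL 1132, and Ttu pre-miR104 on 4DS had 183 against 180 for Ttu pre-miR020 on 1BS. Ttu pre-miR061 on 2DS was slightly below Ttu pre-miR041 on 2AS, with 1918 against 1987 reads and the same value in 52 libraries. Such pairs held nearly equal read counts under at least 2 names. Each name is counted in the numbers of calls below, although only 153 of the 159 hairpins had values distinct from those of every hairpin before them.

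Others followed a partner at another level. Ttu pre-miR152 on 7DL had 5061 reads against 7199 of Ttu pre-miR124 on 6AS (r = 0.98), with the same value in only 2 libraries. Ttu pre-miR132 on 6DL and Ttu pre-miR157 on 7DS had 3990 and 4435 reads, and both were closest to Ttu pre-miR035 on 2AL, which had 11370 (r = 0.94 each). Within the D genome list this pair correlated at 0.97, and Ttu pre-miR054 and Ttu pre-miR056, both on 2DL, at 0.99 with the same value in 86 libraries. The closest A or B genome hairpin of the 2DL pair reached only 0.46, so for these members the near copy was another D genome contig.

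The sequence of 1 close partner is shown, since among the pairs at r of 0.9 or above the primer list of the study held that of this one. Ttu pre-miR119 on 5DL followed Ttu pre-miR109 on 5AS (r = 0.93), with 254 against 271 reads and the same value in 68 libraries. The mature miRNA of the A genome partner, from that supplementary list and written with T for U, is printed 5′ to 3′ with the seed (bases 2 to 8, the stretch that leads pairing with a target) in capitals.
Ttu-miR109: gAGAGCTActcaaatgttcaa
Both hairpins of the pair have a mature sequence of 21 nt.

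**Figure D1:**
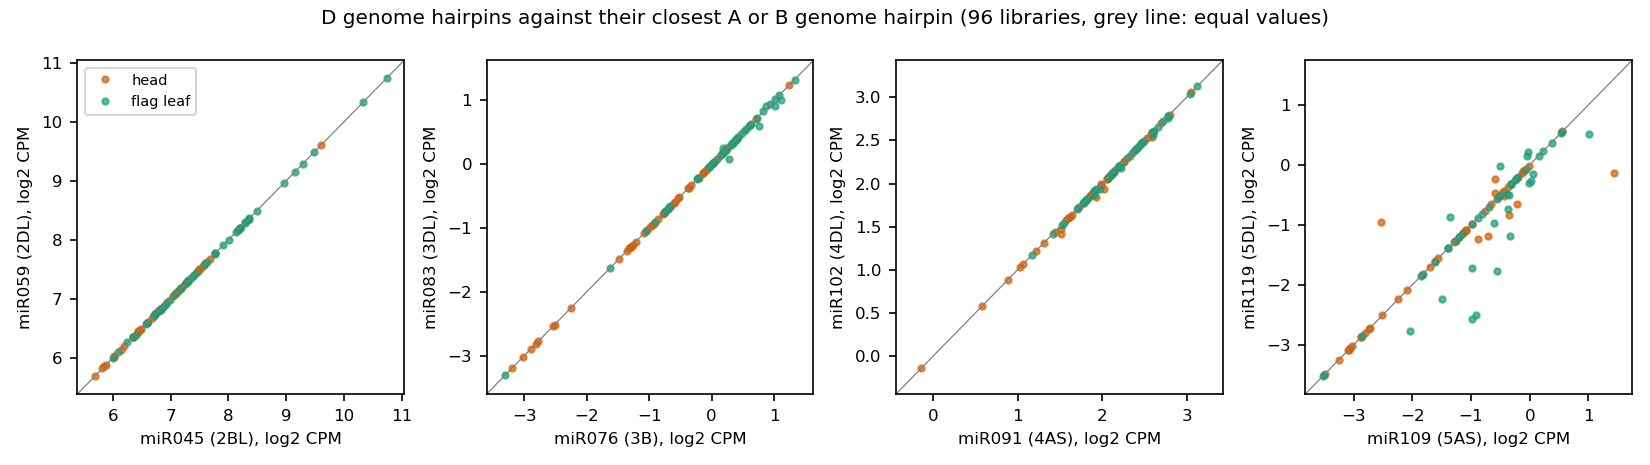
Log2 CPM of 4 D genome hairpins (vertical axes) against their closest A or B genome hairpin (horizontal axes) in 96 libraries, 48 head (orange) and 48 flag leaf (green), with a grey line at equal values. Ttu pre-miR059, Ttu pre-miR083 and Ttu pre-miR102 lie on the line, and Ttu pre-miR119 lies on it in 68 libraries and off it in the others.

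At the low end, whole sets of hairpins were identical. Ttu pre-miR023 and Ttu pre-miR026 on 1DL and Ttu pre-miR130 on 6DL had the same value in every library, 47 reads each. Ttu pre-miR027 on 1DS and Ttu pre-miR151 on 7DL were identical to each other and to Ttu pre-miR040 on 2AS, Ttu pre-miR065 on 3AL and Ttu pre-miR148 on 7BS, with 49 reads each. All 8 contig regions were 102 bases long. Against Ttu pre-miR040 the set of 3 reached r = 0.99 with 94 equal values, but in 86 of these both hairpins were at 0 reads. Ttu pre-miR134 on 6DS (51 reads) had r = 0.95 with it although all 85 shared values were at 0 reads, and 6 of the 19 members at 0.9 or above had reads in 10 libraries or fewer. Among the 45 members with reads in at least 48 libraries, 13 reached 0.9.

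The 53 hairpins had a median level of −0.19 log2 CPM, against 0.55 for A genome and −0.20 for B genome hairpins. They ranged from −2.97 to 7.28. Reads were present in all 96 libraries for 7 members (A genome 13, B genome 10) and in 10 libraries or fewer for 6 (A genome 3, B genome 1). The D genome hairpins took 22.0% of all hairpin reads, the A genome hairpins 52.5% and the B genome hairpins 25.5%. These are sums over hairpins, and hairpins with equal values each entered them. Without Ttu pre-miR120, a hairpin high in 4 plants only, the D genome share was 16.1%. Much of that is Ttu pre-miR059, which alone held 38.2% of all D genome reads. The largest hairpin held 38.0% of the A genome reads and 33.1% of the B genome reads. The mature sequence was 21 nt long in 39 members and 23 nt in 10 (18.9%, against 10.6% of A genome and 6.78% of B genome hairpins), and the 23 nt members had the higher median level, 1.52 against −0.37. Chromosome 2 held 12 of the members and chromosome 5 held 3.

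After Ttu pre-miR059 the next members by level were Ttu pre-miR082 on 3DL (4.56 log2 CPM over all libraries), Ttu pre-miR060 on 2DL (4.51) and Ttu pre-miR135 on 6DS (3.30). Ttu pre-miR152 (2.77), Ttu pre-miR156 (2.64) and Ttu pre-miR158 (2.15) on chromosome 7, Ttu pre-miR102 (2.03), Ttu pre-miR084 on 3DL (2.01) and Ttu pre-miR062 on 2DS (1.99) completed the 10 highest. Ttu pre-miR059 ran from 5.69 to 9.61 in heads (median 6.89) and from 6.00 to 10.74 in flag leaves (median 7.51). Ttu pre-miR082 was narrower, 2.67 to 4.98 in heads (median 4.31) and 3.73 to 5.92 in flag leaves (median 4.91). Unlike Ttu pre-miR059, neither Ttu pre-miR082 (r = 0.64) nor Ttu pre-miR158 (r = 0.48) had an A or B genome hairpin that moved closely with it.

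**Figure D2:**
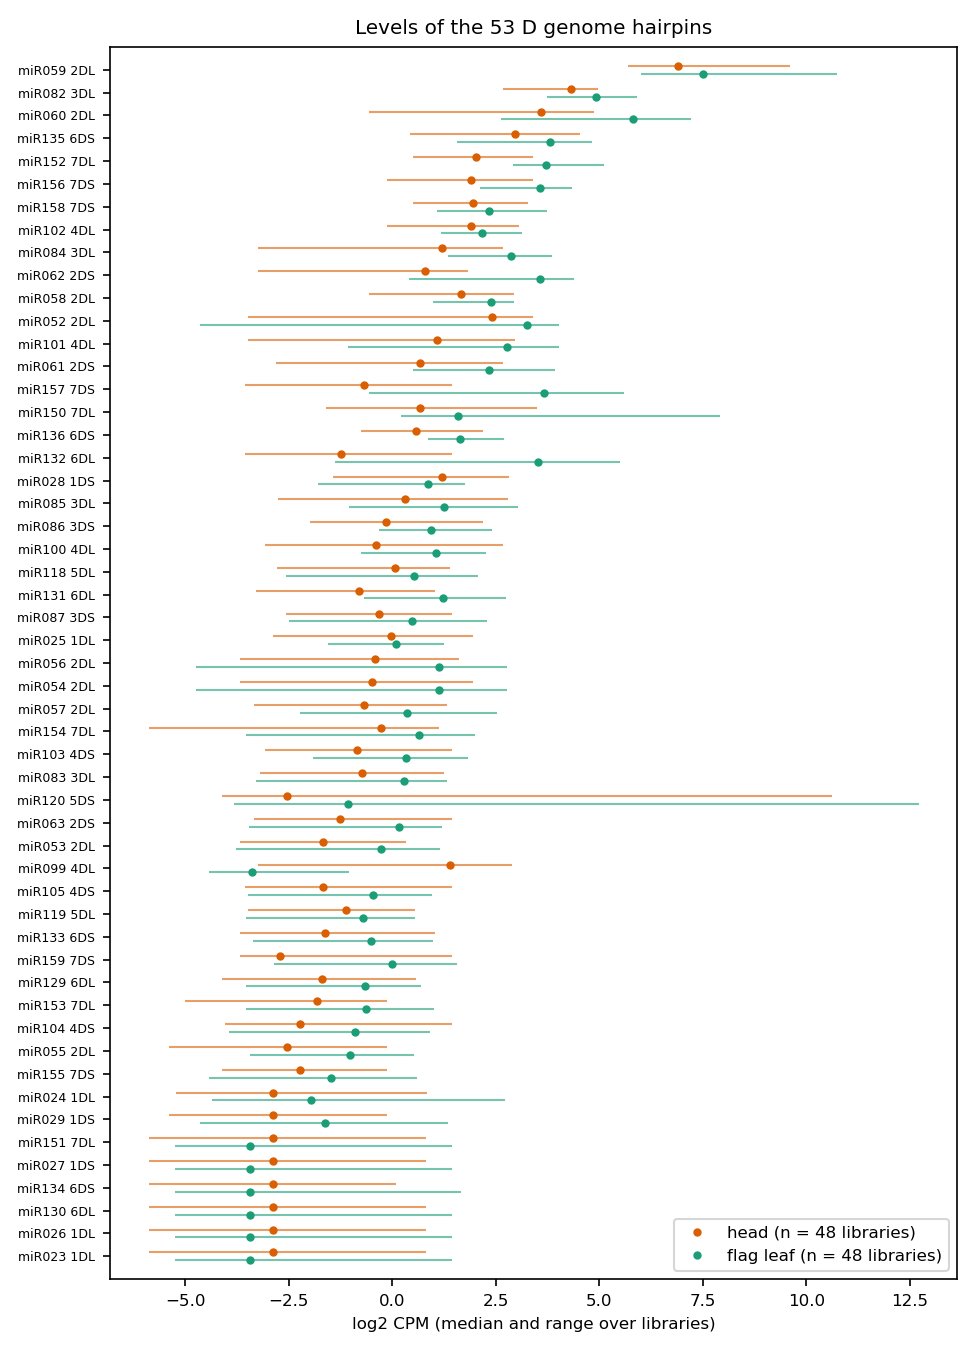
Level of each of the 53 D genome hairpins in log2 CPM (horizontal axis), ordered by mean, with the median (point) and the range (line) over 48 head libraries (orange) and 48 flag leaf libraries (green). Ttu pre-miR120 on 5DS has medians of −2.54 in heads and −1.06 in flag leaves and the farthest high values of any member, up to 12.71.

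Ttu pre-miR120 on 5DS (contig 2730070, positions 7469 to 7599, mature sequence 20 nt) was the hairpin that set 4 plants apart. It was chosen after its values were seen, as were Ttu pre-miR052 and Ttu pre-miR150, and its pattern is a description with no test. Of its 110008 reads, 99.8% came from the 8 libraries of those 4 plants, and it took 38.4 to 70.5% of all hairpin reads there. In Tamaroi CG 1c it reached 10.33 log2 CPM in the head and 12.71 in the flag leaf, with 5367 and 33064 reads. Tamaroi WG 2c had 10.21 in the head and 12.44 in the flag leaf, and Tamaroi WG 2a 10.63 and 11.65. In EGA Bellaroi CG 1b it was at 9.94 in the head and 11.77 in the flag leaf. The other 88 libraries held at most 26 reads (3.09 log2 CPM, a Yawa CG flag leaf) and a median of 1, and 36 of them none.

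High values were thus found in both tissues of a plant or in neither, and in no Yawa or Tjilkuri plant. The CG plants among the 4 were all of season 1 and the WG plants all of season 2. Treatment and season cannot be told apart among them. The share of hairpin reads on D genome hairpins was 45.0 to 75.1% in these 8 libraries. Without Ttu pre-miR120 it was 10.7 to 22.5% there and 9.45 to 22.5% over all 96 libraries. The nearest A or B genome hairpin was Ttu pre-miR110 on 5BL, with r = 0.72 over all libraries and 0.16 without the 4 plants.

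The near-absent hairpins belonged to the same plants. Ttu pre-miR134 had all of its 51 reads in these 8 libraries, at least 1 in each, and 0 in the other 88. The identical set of Ttu pre-miR023, Ttu pre-miR026 and Ttu pre-miR130 had 46 of its 47 reads there, in 7 of the 8 libraries against 1 of the other 88, and the set of Ttu pre-miR027 and Ttu pre-miR151 had 46 of 49, in 7 of 8 against 3 of 88. In all, 7 D genome hairpins had at least 50% of their reads in the 4 plants, as did 4 A genome and 2 B genome hairpins. The A genome hairpins include the 2 identical to Ttu pre-miR027, and of the others Ttu pre-miR071 on 3AS had 4589 of 5220 reads there.

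Ttu pre-miR052 on 2DL, a 23 nt member, showed the opposite pattern. In 9 plants it had no more than 2 reads in either tissue, at −3.49 to −0.66 log2 CPM in heads and −4.66 to −0.92 in flag leaves. In the other 39 plants it ranged from 1.23 to 3.39 in heads and from 1.58 to 4.02 in flag leaves, and the ranges did not meet in either tissue. The plants were divided by these same reads, so the gap is only a description. Tjilkuri WG 2c, among the 39, also had 2 reads in its shallow head library, at 2.18 log2 CPM. The 9 plants were EGA Bellaroi CG 1b, 2a, 2b and 2c, EGA Bellaroi WG 2a and 2b, and Tamaroi CG 1c, WG 2a and WG 2c. All 4 plants high in Ttu pre-miR120 were among them, and no Yawa or Tjilkuri plant was. The 5 EGA Bellaroi plants of season 2 in this set had at most 13 reads of Ttu pre-miR120 in a library.

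Another hairpin with a single-plant value was Ttu pre-miR150 on 7DL, which reached 7.92 log2 CPM (688 reads) in the flag leaf of EGA Bellaroi CG 1b and 3.49 (26 reads) in its head. The other libraries were at 2.91 or lower.

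**Figure D3:**
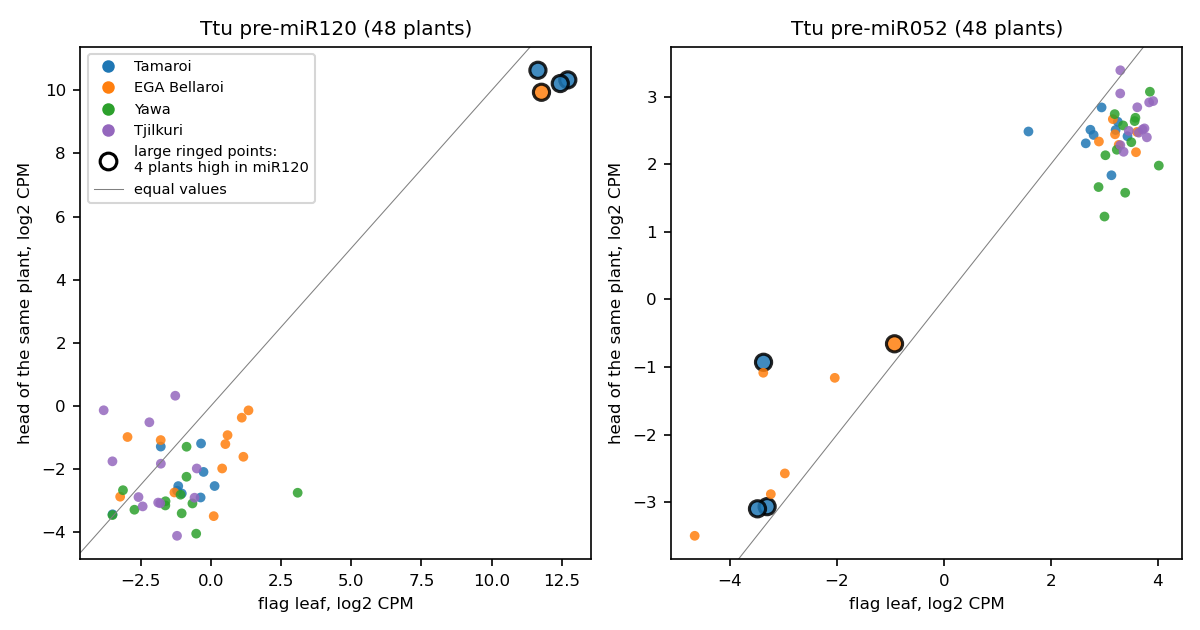
Log2 CPM in the head (vertical axis) against log2 CPM in the flag leaf (horizontal axis) of the same plant, for Ttu pre-miR120 (left) and Ttu pre-miR052 (right), 48 plants coloured by genotype, with a grey line at equal values and large ringed points for the 4 plants high in Ttu pre-miR120. The ringed plants lie between 9.94 and 10.63 in heads and between 11.65 and 12.71 in flag leaves on the left, and among the 9 plants of the low cluster on the right.

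The tissues were compared next, over all 4 genotypes and both treatments with limma, which fits a linear model to every hairpin and shares information on the spread between hairpins. P values were two-sided and adjusted by Benjamini-Hochberg over the 159 hairpins, with a threshold of 0.05. Of the 53 D genome hairpins 42 differed between head and flag leaf, 41 lower in the head and 1 higher. Over all hairpins 82.4% were called, 70.4% as lower and 11.9% as higher in the head. The calls were 32 lower and 6 higher among 47 A genome hairpins and 39 and 12 among 59 B genome hairpins. The median difference, head minus flag leaf, was −0.997 for the D genome, −0.80 for the A genome and −0.89 for the B genome list.

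The member higher in the head was Ttu pre-miR099 on 4DL, a 20 nt hairpin. It ranged from −3.25 to 2.89 in heads (median 1.40) and from −4.44 to −1.05 in flag leaves (median −3.39), with 696 reads in 44 head libraries against 8 reads in 7 flag leaf libraries. The difference was 4.43 (SE 0.19, limma adjusted p = 5.92e-37), and the head was higher in 48 of 48 plants. Its closest partner, Ttu pre-miR081 on 3B (r = 0.98), had 541 reads against its 704.

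The largest differences in the other direction were those of the related pair. Ttu pre-miR132 averaged −1.28 ± 1.30 in heads and 3.26 ± 1.53 in flag leaves (SD, n = 48 each), a difference of −4.54 (SE 0.27, limma adjusted p = 3.86e-28). Ttu pre-miR157 averaged −0.79 ± 1.25 and 3.47 ± 1.34, a difference of −4.26 (SE 0.25, limma adjusted p = 1.6e-28). In reads this is 107 over 48 heads against 3883 over 48 flag leaves for Ttu pre-miR132, and every plant had the lower value in the head for both.

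Ttu pre-miR062 fell by 2.81 in the head (SE 0.19, limma adjusted p = 2.45e-25), with medians of 0.79 in heads and 3.57 in flag leaves. Ttu pre-miR060 fell by 2.29 (SE 0.15, limma adjusted p = 8.61e-26), with medians of 3.60 in heads and 5.82 in flag leaves, and Ttu pre-miR152 by 1.86 (SE 0.12, limma adjusted p = 1.66e-26), with 2.02 and 3.70. All 3 were lower in the head in 48 of 48 plants. The 11 members without a call were the 6 with reads in 10 libraries or fewer, Ttu pre-miR120, Ttu pre-miR052, Ttu pre-miR025, Ttu pre-miR028 and Ttu pre-miR155.

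The balance of directions depended on the scale of the libraries. Each library was divided by the median ratio of 62 hairpins to their means, those with reads in at least 90 libraries, 21 of them members. The head minus flag leaf difference of all hairpins then moved by 1.12 and the D genome median became 0.12. The scaling centres these 62 hairpins in every library, so a small list median after it is partly built in. The calls were then 11 lower and 17 higher in the head, where 23.3% of all hairpins were lower and 38.4% higher. The 11 lower members were lower on both scales, among them the 5 named above, whereas 7 members lower as deposited were higher after the scaling. Of the 17 higher, 6 were hairpins with reads in 10 libraries or fewer, whose value is mostly the lowest value of the library. Ttu pre-miR099 was higher in the head on both scales (5.55 after scaling), and Ttu pre-miR059, at −0.77 as deposited, was at 0.35 without a call after scaling.

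**Figure D4:**
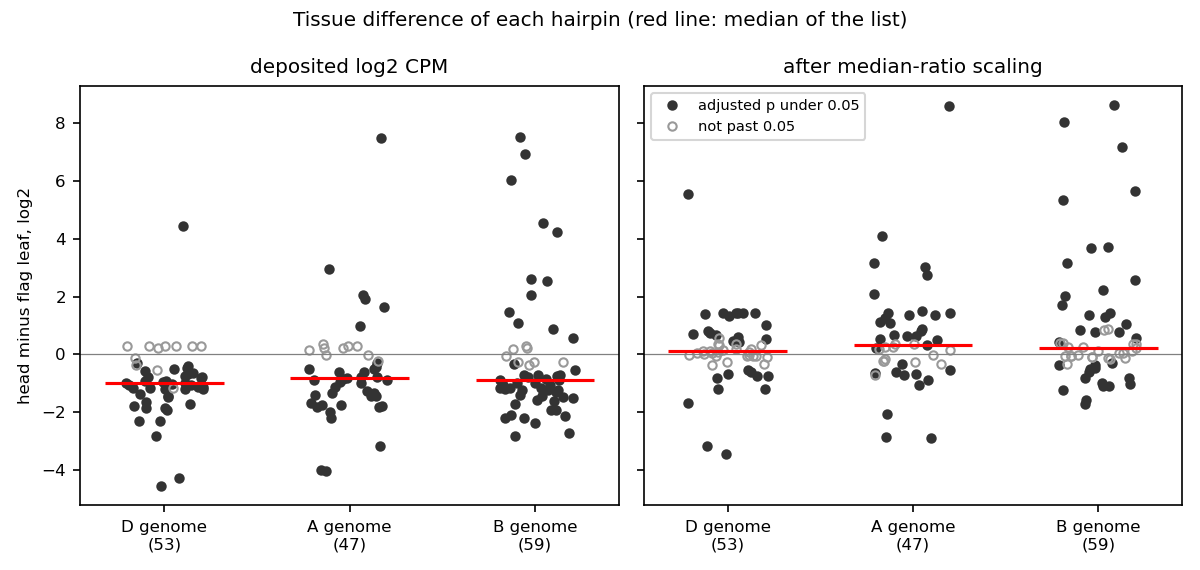
Difference of each hairpin between tissues (vertical axis, head minus flag leaf, log2), by genome list (horizontal axis), as deposited (left) and after median-ratio scaling (right). Filled points passed an adjusted p of 0.05 in limma and red lines are list medians, which for the D genome hairpins lie at −0.997 on the left and 0.12 on the right.

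Water deficit stress was tested in each tissue as WG minus CG averaged over the 4 genotypes. Limma called 0 of the 53 D genome hairpins in the flag leaf and 0 in the head, as it called 0% of all hairpins in each. At an unadjusted p under 0.05 there were 6 in the flag leaf and 1 in the head, and limma voom, which weights recovered reads by their precision, also called 0 in each. The smallest p in the flag leaf was that of Ttu pre-miR154, with medians of 0.73 in WG and 0.37 in CG and a difference of 0.85 (SE 0.34, limma adjusted p = 0.415). In Tamaroi flag leaves it had reads in all 6 WG plants and in 2 of the 6 CG plants (medians −0.68 and −3.35, limma adjusted p = 0.584). Without the 9 plants low in Ttu pre-miR052, its difference over the genotypes was 1.41 and passed the threshold (limma adjusted p = 0.0174), so for this member the outcome depended on those plants.

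In the head the smallest p was that of Ttu pre-miR084, with medians of 0.98 in WG and 1.30 in CG and a difference of −0.66 (SE 0.22, limma adjusted p = 0.3). The lowest 3 of the 48 heads belonged to plants high in Ttu pre-miR120, at −3.25 in Tamaroi WG 2c, −0.77 in Tamaroi WG 2a and −0.66 in the control plant EGA Bellaroi CG 1b. The next were WG plants outside these, Yawa 2c at −0.49, Yawa 1a at −0.21 and EGA Bellaroi 1a, a shallow library with 0 reads of it, at −0.14. Without the 4 plants high in Ttu pre-miR120 the difference was −0.48 (limma adjusted p = 0.131).

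Within single genotypes 8 contrasts were fitted, and D genome hairpins were called in 1 of them. In Tamaroi, EGA Bellaroi, Yawa and Tjilkuri flag leaves and in Tamaroi, EGA Bellaroi and Tjilkuri heads limma called 0 members and 0% of all hairpins, with 0 to 3 members at an unadjusted p under 0.05. In Yawa heads it called 1 member, Ttu pre-miR060, where 5.03% of all hairpins were called and 7 members had an unadjusted p under 0.05. Its values in Yawa heads were 0.15, 2.96 and 3.37 in season 1 and −0.56, −0.01 and 2.84 in season 2 under WG, against 3.17 to 3.89 in the 6 CG plants. The difference was −2.09 (SE 0.42, limma adjusted p = 0.000529), and 3 of the 6 WG plants, 1a, 2b and 2c, held the low values. The groups overlapped through the highest WG plant. Those 3 libraries had 56, 59 and 63 of the 159 hairpins at 0 reads, the other 3 WG heads 36, 51 and 42 and the CG heads 20 to 45. Some other members were low in them. Ttu pre-miR101 on 4DL, chosen after its values were seen, had 2, 0 and 0 reads there and 8 to 24 in the other WG heads. Ttu pre-miR028 had 1, 4 and 1 against 8 to 14. Ttu pre-miR150 went the other way, with 10, 22 and 11 reads against 5, 3 and 6. The D genome list as a whole had 495, 785 and 636 reads there, against 777, 413 and 674. Its share of hairpin reads was 13.0, 17.7 and 16.6%, against 10.0, 10.4 and 11.2%. The part of these libraries as a whole in the result was not tested. After median-ratio scaling the difference of Ttu pre-miR060 was −1.67 (limma adjusted p = 0.0037), and without the plants 1a of every group it was −1.76 and missed the threshold (limma adjusted p = 0.0716).

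The difference between the treatment effects of Yawa and Tjilkuri heads was tested directly. It passed the threshold for 3 D genome hairpins, with 7.55% of all hairpins called. For Ttu pre-miR060 it was −2.47 (SE 0.59, limma adjusted p = 0.00708), since Tjilkuri heads had medians of 3.50 in WG and 3.22 in CG. For Ttu pre-miR083 it was −2.20 (SE 0.74, limma adjusted p = 0.0493) and for Ttu pre-miR025 on 1DL, chosen after its values were seen, −1.99 (SE 0.65, limma adjusted p = 0.0479). Both were measured on few reads: Ttu pre-miR083 had 7 reads over the 6 Yawa WG heads and 24 over the 6 CG heads, and 46 and 10 in Tjilkuri. The same 3 Yawa WG libraries held 0, 1 and 0 of these reads, and 3, 0 and 0 of Ttu pre-miR025. After median-ratio scaling none of the 3 differences passed, at −1.85 for Ttu pre-miR060 (limma adjusted p = 0.0988), −1.58 for Ttu pre-miR083 and −1.37 for Ttu pre-miR025 (limma adjusted p = 0.303 each). Voom called 1, Ttu pre-miR060, and none passed without replicate 1a, 2b or 2c. Over both tissues and all genotypes the tolerance × treatment interaction called 0 members (5 at an unadjusted p under 0.05) and 2.52% of all hairpins. The member with the smallest p was Ttu pre-miR084, at −1.0 (SE 0.32, limma adjusted p = 0.0614), or −0.59 without the 4 plants (limma adjusted p = 0.201).

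Genotypes were compared as Tamaroi minus EGA Bellaroi and as Yawa minus Tjilkuri, over both treatments. In the flag leaf Tamaroi differed from EGA Bellaroi in 5 D genome hairpins, 4 higher and 1 lower, and 4.4% of all hairpins were called (A genome 2, B genome 0). The largest differences were those of the 2DL pair. Ttu pre-miR056 averaged 1.53 ± 0.83 in Tamaroi and −1.62 ± 2.16 in EGA Bellaroi (SD, n = 12 each), a difference of 3.15 (SE 0.60, limma adjusted p = 7.05e-05), and Ttu pre-miR054 3.28 (SE 0.61, limma adjusted p = 7.05e-05). Every Tamaroi flag leaf had at least 4 reads of Ttu pre-miR056, whereas 7 of the 12 EGA Bellaroi flag leaves had 0.

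Ttu pre-miR132 averaged 4.22 ± 0.94 in Tamaroi and 2.23 ± 2.42 in EGA Bellaroi flag leaves, a difference of 1.99 (SE 0.54, limma adjusted p = 0.0154), and Ttu pre-miR157 differed by 1.66 (SE 0.50, limma adjusted p = 0.0288). The season split these values. In season 2, 5 of the 6 EGA Bellaroi plants had Ttu pre-miR132 at −1.39 to 1.02 and the other plant, WG 2c, at 3.59, whereas Tamaroi ranged from 3.68 to 5.50. In season 1 Ttu pre-miR132 ranged from 2.08 to 5.46 in Tamaroi and from 2.92 to 5.09 in EGA Bellaroi. The 5 plants were those of EGA Bellaroi season 2 that were low in Ttu pre-miR052, and they held 0 or 1 read of Ttu pre-miR056 in the flag leaf and 0 in the head. The Tamaroi plants low in Ttu pre-miR052 had Ttu pre-miR132 at 4.68 to 5.50. Without the 9 plants limma called 0 of the 53 members (5 at an unadjusted p under 0.05), with differences of −0.11 for Ttu pre-miR132 and 1.48 for Ttu pre-miR056. What these plants share beyond genotype, season and values was not tested.

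The lower member was Ttu pre-miR154, at −1.46 ± 1.62 in Tamaroi and 0.21 ± 1.39 in EGA Bellaroi flag leaves, a difference of −1.66 (SE 0.48, limma adjusted p = 0.023). Its values lay between −3.43 and −0.20 in Tamaroi and between −0.57 and 1.37 in EGA Bellaroi in season 2, and overlapped more widely in season 1, −3.54 to 1.12 against −2.78 to 1.99. In the head Tamaroi and EGA Bellaroi differed in 0 members, with 0% of all hairpins called and 6 members at an unadjusted p under 0.05 (voom 0). The smallest p was that of Ttu pre-miR153 on 7DL, at a difference of −1.19 (SE 0.45, limma adjusted p = 0.229).

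Yawa and Tjilkuri flag leaves differed in 0 D genome hairpins (4 at an unadjusted p under 0.05, voom 0), where 1.89% of all hairpins, 3 of the A genome, were called. The smallest p was that of Ttu pre-miR087 on 3DS, −0.90 (SE 0.38, limma adjusted p = 0.419). In the head 3 members were called, all lower in Yawa, with 3.77% of all hairpins called. Ttu pre-miR058 on 2DL had a median of 1.47 in Yawa (−0.21 to 2.27) and 2.04 in Tjilkuri (1.40 to 2.94), a difference of −0.90 (SE 0.23, limma adjusted p = 0.0085). Ttu pre-miR056 had medians of −1.66 in Yawa and 0.51 in Tjilkuri, a difference of −2.01 (SE 0.60, limma adjusted p = 0.0358), and Ttu pre-miR054 differed by −1.95 (SE 0.61, limma adjusted p = 0.0465). The genotypes overlapped for all 3, and without the 4 shallowest head libraries only Ttu pre-miR056 passed the threshold (limma adjusted p = 0.0396). The count was 0 to 2 with 1 replicate left out and 0 in season 2 alone. The Yawa WG heads 1a, 2b and 2c held 3, 3 and 4 reads of Ttu pre-miR058, and the other WG heads 5 to 20. The 2DL pair was thus the lower in EGA Bellaroi flag leaves and in Yawa heads, a sensitive and a tolerant genotype.

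Season 2 and season 1 differed in 0 D genome hairpins in the flag leaf and in 0 in the head, with 0% of all hairpins called in each. At an unadjusted p under 0.05 there were 4 and 3, and voom called 2 in the flag leaf and 0 in the head. The smallest p in the flag leaf was that of Ttu pre-miR132, with medians of 3.03 in season 2 and 3.74 in season 1 and a difference of −1.24 (SE 0.36, limma adjusted p = 0.0694), to which the 5 EGA Bellaroi plants of season 2 contributed the lowest values. In the head it was that of Ttu pre-miR053 on 2DL, 0.88 (SE 0.32, limma adjusted p = 0.236).

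**Figure D5:**
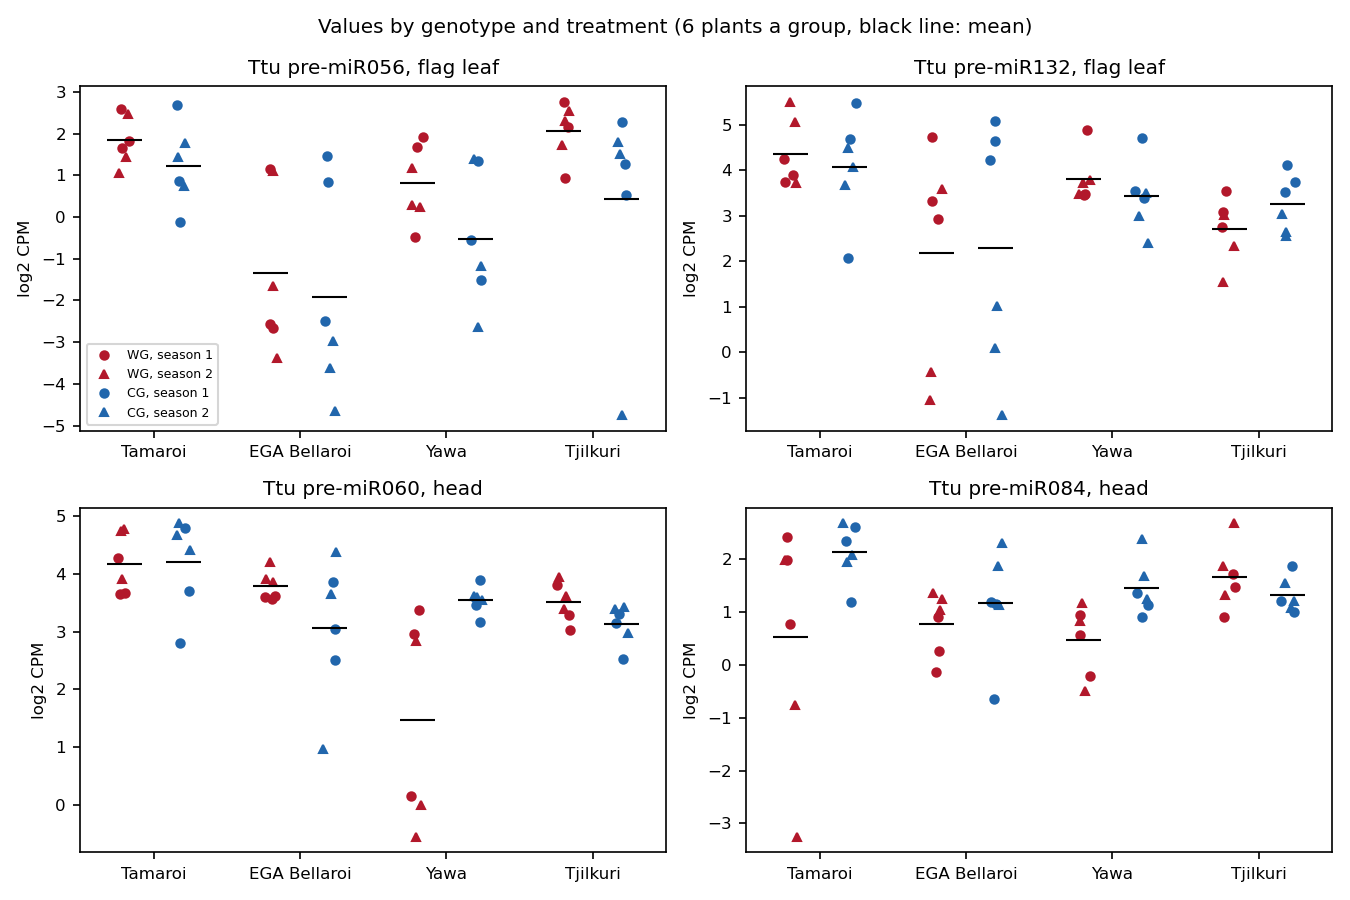
Log2 CPM (vertical axes) of 4 D genome hairpins by genotype (horizontal axes), with WG in red left of CG in blue, circles for season 1, triangles for season 2 and a black line at the mean of the 6 plants. Ttu pre-miR132 is at −1.39 to 1.02 in 5 EGA Bellaroi flag leaves of season 2, and Ttu pre-miR060 is at −0.56 to 0.15 in 3 Yawa WG heads.

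The head and the flag leaf of a plant were also compared as whole profiles, with Ttu pre-miR120 and Ttu pre-miR052 included. Over the hairpins of all genome lists together, the deviations of a plant from its group means correlated between its tissues. The median was 0.28 (−0.14 to 0.72 over 48 plants), against −0.06 between the head and the flag leaf of different plants of the same group. The deviations within a group cancel out. The value for different plants is thus largely set by the own-plant value and is no separate baseline. For 27 of the 48 plants the best match among the 6 plants of the group was the own plant. These are correlations across hairpins, which are not independent of each other. Taken hairpin by hairpin over the 48 plants, the D genome median r between tissues was 0.23, with 8 of 53 members over 0.5. Ttu pre-miR052 (r = 0.95) and Ttu pre-miR120 (r = 0.90) were among these. The median was 0.22 for the A genome list (9 of 47 over 0.5) and 0.13 for the B genome list (8 of 59).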

How the data were processed

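Small RNAs of 96 libraries were measured by sequencing. For the hairpins the authors filtered 19 to 26 nt reads, placed them on bread wheat survey contigs, tested candidate folds and deposited log2 CPM. The rule by which a read matching several hairpins was counted is not given. A second deposited file holds RPM of conserved miRNAs and was used only for library depth. The authors' arm, position and lengths of each hairpin came from their supplementary list.

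Reads were recovered as (2^(value − lowest value) − 1)/2, and all 11298 values under 20 reads were whole within 0.1 reads. Of the D genome values 23.5% were at the lowest value.

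Limma 3.58.1 in R 4.3.3 was fitted with 1 mean per group (16 groups) and trended variances over all 159 hairpins, with Benjamini-Hochberg adjustment per comparison. The interaction model had tissue, tolerance, treatment and tolerance × treatment. Season was added per tissue for the season contrast. The code was tested on simulated data. Alternatives were voom on recovered reads, median-ratio scaling, a filter on hairpins, each replicate or season left out, the plant or the replicate as a block, and leaving out the 4 plants, the 9 plants or the 4 shallow libraries, the last 3 chosen after seeing the data, as were the alternatives for single genotypes and for the Yawa and Tjilkuri effect difference. The rest was done in Python 3.11.15, with numpy 2.4.6 and pandas 2.3.3 for the tables, matplotlib 3.10.9 for figures and scipy 1.17.1.

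Plant numbers in the labels pair the head and flag leaf of a plant. Their deviations correlated over 0.1 in 37 of 48 plants. Labels give plants as biological replicates. Letters name replicates within a group.

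The members, lists and tests were chosen with earlier results of these data known. The hairpins named are the 10 with the highest mean, up to 5 per direction with the smallest adjusted p in each comparison (or the 1 with the smallest p), those identical to another hairpin or with the 10 highest r, and the 3 with reads in the fewest libraries, ties included. Apart from partners, other hairpins named, such as Ttu pre-miR101 and Ttu pre-miR071, were chosen after their values were seen. Mature sequences of the D genome hairpins are not analysed here, and 0 columns of the files were left unused.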

Additional observations from a re-analysis of the deposited data

Results flagged for a closer look

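Values in Tamaroi CG 1c and EGA Bellaroi CG 1b lay farther from the rest of their group of 6 than Dixon's limit. In both plants these were Ttu pre-miR120 and the D genome share of reads. Ttu pre-miR052 passed the limit in Tamaroi CG 1c only, and EGA Bellaroi CG 2a, 2b and 2c were low in it like 1b. The hairpins were chosen for these values and the share there is mostly Ttu pre-miR120, so the values describe 2 plants and no rate or test is read from them. The share of hairpin reads on D genome hairpins was 55.6% in the head and 75.1% in the flag leaf of Tamaroi CG 1c and 45.0% and 64.3% in EGA Bellaroi CG 1b. Ttu pre-miR120 was at 10.33 log2 CPM in the head and 12.71 in the flag leaf of Tamaroi CG 1c, and at 9.94 and 11.77 in EGA Bellaroi CG 1b. Ttu pre-miR052 was at −3.06 in the head and −3.30 in the flag leaf of Tamaroi CG 1c. The Tamaroi WG group held 2 such plants, 2a and 2c, so that neither was alone in its group.

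Effects were set against each other in 7 contrasts, 371 tests over the D genome hairpins, and 3 passed, all for the water deficit effect in heads, Yawa minus Tjilkuri. The differences were −2.47 for Ttu pre-miR060, −2.20 for Ttu pre-miR083 and −1.99 for Ttu pre-miR025, all with low values in the Yawa WG heads 1a, 2b and 2c, and 0 of them passed after median-ratio scaling.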

How the results depend on the processing

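Of 210 alternative values for the counts, levels and correlations, 171 stayed within 1.5 times the count or within the spread between replicates. Of 391 for the named hairpins, 337 kept direction and call, 43 lost the call, 7 gained it and 4 turned sign. The replicate block, by plant or by season and letter, changed no count, with 42 members called between tissues and 5 between Tamaroi and EGA Bellaroi flag leaves. For WG minus CG, season 2 alone gave 1 member in the head, and leaving out the 9 plants low in Ttu pre-miR052 gave 1 in the flag leaf. In single genotypes the count was 2 after median-ratio scaling, 2 with voom, 1 to 5 with 1 replicate left out, 2 without the 4 plants high in Ttu pre-miR120 and 7 without the 9 plants, which left 2 plants in the EGA Bellaroi CG group. For Tamaroi minus EGA Bellaroi, flag leaf, the count was 0 in season 1 alone, 8 in season 2 alone, 0 without the 9 plants and 2 to 5 with 1 replicate left out. There Ttu pre-miR132 turned to −0.14 in season 1 alone and −0.11 without the 9 plants, and Ttu pre-miR157 to −0.17 and −0.12. In the head it was 1 in season 1 alone, 1 without the 4 plants and 1 without the 9. For the water deficit effect in heads, Yawa minus Tjilkuri, the count was 0 after median-ratio scaling, 1 with voom and 0 to 3 with 1 replicate left out. For Yawa minus Tjilkuri, head, voom gave 1, season 1 alone 1 (higher in Yawa), season 2 alone 0, leaving out the 4 shallow heads 1, and leaving out 1 replicate 0 to 2. For the season in the flag leaf voom gave 2, leaving out the 4 plants 1 and leaving out 1 replicate 0 to 2. The interaction had 1 with voom, 5 in season 2 alone and 0 to 1 with 1 replicate left out. The D genome median level was 0.33 over libraries with reads only. Fits on 1 season have 3 plants per group, and counts of correlations at 0.9 ran from 13 to 22. Where a cause is not given, the cause was not tested. Hairpins under about 1 read per library, and any hairpin in the 4 shallow heads, are limited by depth.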
